A study of Danio rerio with 12 samples.

Results

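Genes that copy DNA and genes that carry cells through mitosis were examined in RNA from whole zebrafish larvae with and without Elmo3, an adaptor protein of the engulfment and cell motility family that works with DOCK proteins on the small GTPase Rac1. The list holds 53 gene symbols of known replication and mitosis proteins, and its members are the Ensembl gene identifiers that carry one of them in the symbol table. Of the 53 symbols 52 were found among the 32520 identifiers, and they named 54 genes because mcm6 and rrm2 each named 2. The symbol birc5a named no gene. A gene named BIRC5 (ENSDARG00000075621) was looked at beside the list and not counted in it. The filter on low counts was passed by 53 of the 54 genes, and by 21127 genes in all.

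There were 12 samples, 6 of elmo3+/+ and 6 of elmo3-/- larvae, and each sample was a pool of 30 whole larvae at 120 hours post fertilization (hpf). The knockout carries a frameshift deletion in an early exon of elmo3, introduced with CRISPR/Cas9. The line was made in the reporter Tg(fli1:EGFP), in which endothelial cells express EGFP, so both genotypes share this background. Controls were littermates according to the methods of the study. The labels do not tell from which parents or clutches the pools came, so the p-values below measure the spread between these pools.

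The targeted gene was looked at first. Transcripts of elmo3 (ENSDARG00000042126) gave 44 to 99 counts per pool, with 1.995 ± 0.556 in transcripts-per-million units (TPM) in the elmo3+/+ pools against 1.95 ± 0.546 TPM in the elmo3-/- pools (mean ± SD of 6 pools). The log2 fold change was 0.03 ± 0.19 (standard error, edgeR, adjusted p = 0.967), so the abundance of its RNA does not check the genotype labels. Total counts lay between 16851426 and 17577126 per pool, and 3 counts, taken as the floor, equalled 0.163 to 0.195 CPM (counts-per-million of the scaled totals), counting error alone considered. Of 23 listed marker symbols of muscle, nervous system, liver, pancreas, skin, eye, heart, vessels, gut and blood 20 were found. They named 23 genes, several of them rho, and all 23 genes were detected in every pool.

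Before a cell divides, the MCM proteins are loaded onto DNA as a ring and become the helicase that opens the double helix. Polymerases, the sliding clamp PCNA and its loader RFC then copy the strands from deoxynucleotides that ribonucleotide reductase provides. Cyclin-dependent kinases, Aurora and Polo kinases, the spindle motors and the condensins then separate the copies, and transcripts of most of these genes are abundant only in cells that cycle. In the larva such cells are found in the margin of the retina, along the brain ventricles, in blood-forming tissue, gut and skin. In RNA of whole larvae a lower level cannot be told apart between fewer cycling cells and less RNA in each of them.

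Nearly all members were well above the counting floor. On the TPM scale, which divides by transcript length, pcna was the most abundant member with 167 ± 16.0 TPM in elmo3+/+ against 151 ± 6.89 TPM in elmo3-/- (mean ± SD of 6 pools). It was followed by mcm7 with 137 ± 7.43 and 130 ± 22.4 TPM. Single pools had 146 to 193 TPM of pcna in elmo3+/+ and 144 to 162 TPM in elmo3-/-. For mcm7 they had 128 to 144 TPM in elmo3+/+ and 89.0 to 151 TPM in elmo3-/-, so the genotypes overlapped in both genes. Next stood rfc4 with a mean of 72.3 TPM over the 12 pools, the rrm2 gene ENSDARG00000078069 with 57.6 TPM and rrm1 with 46.9 TPM. The lowest tested members were mcm10 with 1.62 TPM, pole with 2.51 TPM and espl1 with 2.65 TPM. The median member had 11.6 TPM. The single member that the filter removed was the mcm6 gene ENSDARG00000033231, which had 0 to 5 counts per pool and a mean of 0.0757 TPM.

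The high TPM of mcm7 rests in part on length. Its TPM was 9.45 ± 1.06 times that of mcm2 (SD over 12 pools), but its counts were 1.66 ± 0.23 times those of mcm2, because the length by which its counts were divided was 0.175 ± 0.0137 of that of mcm2. In the same way the TPM of rfc4 was 5.20 ± 1.19 times that of mcm2 while its counts were 0.322 ± 0.0657 times. Order between members is therefore given on the TPM scale, and genotype differences below are on the CPM scale unless TPM is named. Length cancels there only where it was the same in every pool. For kif11 it was 0.438 ± 0.0691 of that of mcm2 (SD over 12 pools), and the mean of kif11 was lower in elmo3-/- in CPM but higher in TPM.

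No member passed the threshold of an adjusted p-value under 0.05 in the comparison of elmo3-/- with elmo3+/+. In the edgeR quasi-likelihood test 0 of 53 members passed, beside 21 of 21127 genes in all (0.0994%, 12 higher and 9 lower in elmo3-/-). DESeq2 and limma on log2(TPM + 1) also called 0 members. The lowest adjusted p-value of a member was 0.489. At an unadjusted p under 0.05 there were 6 members lower in elmo3-/-, namely mcm2, mcm3, mcm4, mcm5, mcm6 (ENSDARG00000057683) and pold1, and 1 member higher, the rrm2 gene ENSDARG00000020711. These are 11.3% and 1.89% of the members, beside 4.95% of all genes lower and 4.58% higher at the same unadjusted p. The genotypes overlapped in CPM for all 54 members, while 0.431% of all genes tested did not overlap.

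The count of 7 members at an unadjusted p under 0.05 moved with single pools. It was 4 without elmo3+/+ replicate 2, 4 without elmo3+/+ replicate 5 and 3 without elmo3-/- replicate 2. The share of all tested genes at this unadjusted p also fell, from 9.52% to 5.72%, 6.10% and 6.59% in the same order. Leaving out other pools raised both. Without elmo3+/+ replicate 1 there were 8 members lower and 1 higher, with a share of 14.5% of all tested genes. Without elmo3-/- replicate 4 there were 6 lower and 2 higher, with a share of 11.9%. The median log2 fold change of the members was -0.04, beside 0.004 over all genes tested. Without elmo3-/- replicate 4 the median of the members was 0.003. In the main fit 40 members were below 0 and 13 above, and 48.9% of all genes tested were below 0. Members moved together between pools (median r = 0.429), so their directions are not independent. For 50 of the 53 members the 95% confidence interval of the log2 fold change lay within 0.5 on either side of 0. The plot of fold changes by role shows these intervals.

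**Figure D1:**
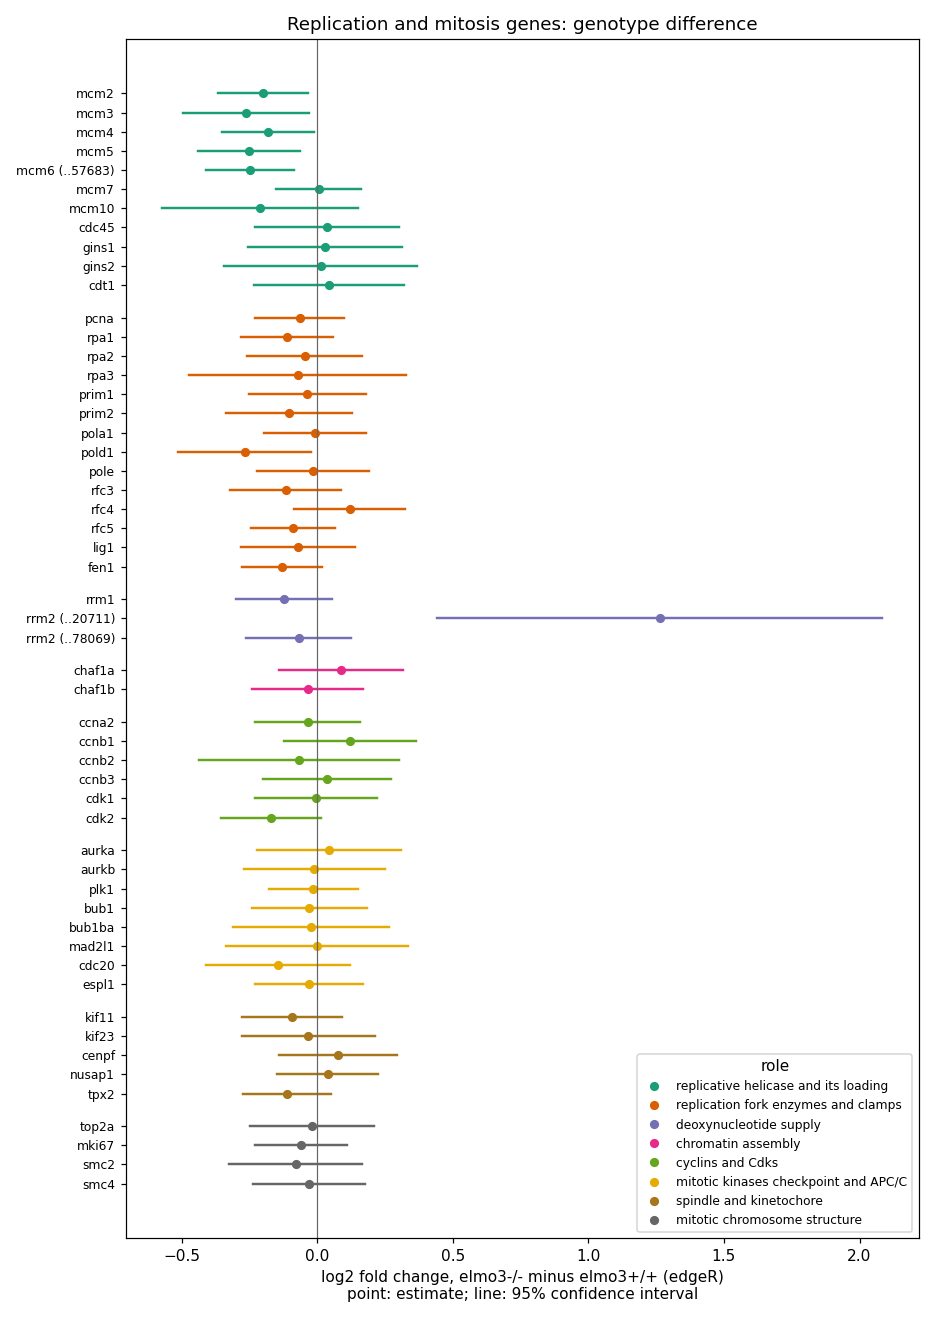
Log2 fold change of each tested member (elmo3-/- minus elmo3+/+, edgeR, x axis) with its 95% confidence interval, ordered and coloured by role (y axis, last 5 digits of the identifier where a symbol names more than 1 gene). Intervals of mcm2 to mcm6, pold1 and one rrm2 gene do not cross 0, none of these genes passed after adjustment, and the other members centre near 0.

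The helicase members came in different sizes of effect. Of the MCM ring subunits, mcm2 to mcm6 had lower means in elmo3-/-, with log2 fold changes between -0.18 and -0.26, and mcm7 had 0.006. These 5 genes were singled out after their values were seen. For mcm5 (ENSDARG00000019507) CPM in elmo3+/+ pools was 34.2 at the lowest, 42.3 at the median and 46.7 at the highest. In elmo3-/- pools it was 29.6, 34.8 and 38.7. All 6 elmo3-/- pools lay below the elmo3+/+ median, 4 elmo3+/+ pools lay above every elmo3-/- pool, and the other two elmo3+/+ pools, replicates 1 and 3, lay among them. The log2 fold change of mcm5 was -0.25 ± 0.09 (standard error, edgeR, unadjusted p = 0.012, adjusted p = 0.495).

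For mcm6 (ENSDARG00000057683) the elmo3+/+ pools had 34.8, 41.3 and 46.4 CPM at the lowest, median and highest, and the elmo3-/- pools had 31.2, 35.5 and 37.7 CPM. Only elmo3+/+ replicate 1, at 34.8 CPM, fell inside the elmo3-/- range. The log2 fold change of mcm6 was -0.25 ± 0.08 (standard error, edgeR, unadjusted p = 0.00534, adjusted p = 0.489). For mcm2 (ENSDARG00000102798) the pools ran from 61.5 to 80.7 CPM in elmo3+/+ and from 52.1 to 68.7 CPM in elmo3-/-, with a log2 fold change of -0.20 (adjusted p = 0.499, edgeR). The same layout held for mcm3 (31.0 to 49.1 against 28.3 to 39.3 CPM, log2 fold change -0.26, adjusted p = 0.499) and mcm4 (53.3 to 71.7 against 49.8 to 58.7 CPM, log2 fold change -0.18, adjusted p = 0.509). In each of these 5 genes all 6 elmo3-/- pools lay below the elmo3+/+ median.

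The ring partner mcm7 (ENSDARG00000101180) did not share this layout. Its CPM was 99.6, 110 and 119 in elmo3+/+ (lowest, median, highest) and 95.7, 112 and 122 in elmo3-/-, with 3 elmo3-/- pools on either side of the elmo3+/+ median. The 95% confidence interval of its log2 fold change ran from -0.15 to 0.16 (adjusted p = 0.985, edgeR), and the sign of this value turned under other scalings. Of the genes that load or activate the ring, mcm10, which helps to switch the helicase on, had a log2 fold change of -0.21 with an interval from -0.57 to 0.15. The partners cdc45, gins1 and gins2, which complete the active helicase, and the loader cdt1 lay between 0.01 and 0.04, and all had adjusted p-values of at least 0.930. The sign of each of these 4 values turned under 1 or more alternatives.

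**Figure D2:**
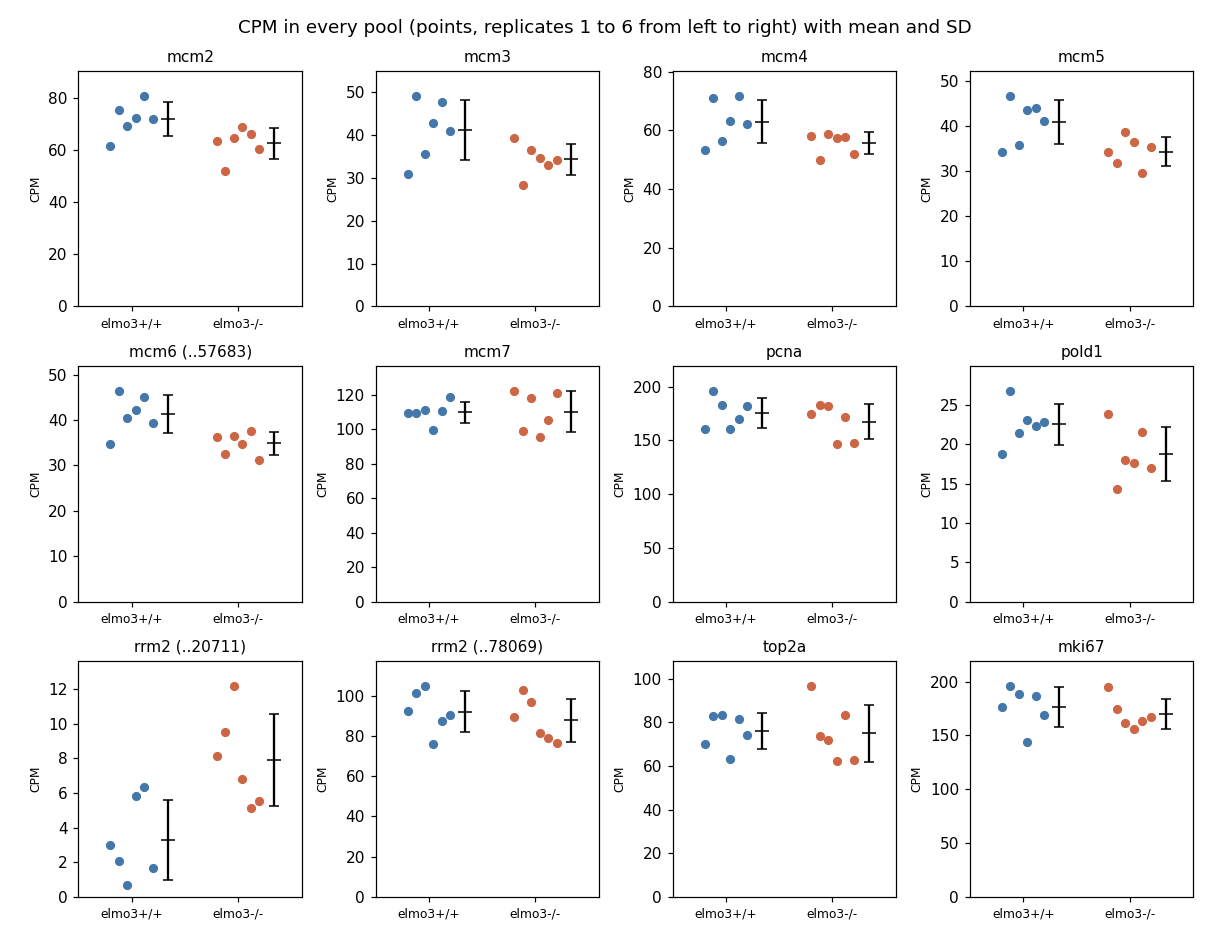
CPM (y axis, starting at 0) of 12 tested members in each pool, elmo3+/+ in blue and elmo3-/- in orange, with the mean and SD of 6 pools in black. For mcm2 to mcm6 all 6 elmo3-/- points of each gene sit below the elmo3+/+ median and 1 or 2 of them below the lowest elmo3+/+ point. Medians of mcm7 are 110 and 112 CPM, and the rrm2 gene ENSDARG00000020711 sits at 5.12 to 12.2 CPM in elmo3-/-.

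The level of mcm2 to mcm6 also moved with measures of the libraries. Averaged over the 5 genes as a deviation from each gene's mean over the 12 pools, it lay between -0.15 and 0.29 in elmo3+/+ and between -0.29 and -0.02 in elmo3-/- (log2 CPM), a difference in means of -0.22. The pools with more counts had the higher mcm2 to mcm6 level (Pearson r = 0.904, Spearman rho = 0.881, n = 12 pools). This held within the genotypes, with r = 0.931 over 6 elmo3+/+ pools and 0.641 over 6 elmo3-/- pools, and r was 0.817 without the 2 pools farthest from the median total. Total counts lay between 16927275 and 17577126 in elmo3+/+ pools and between 16851426 and 17188263 in elmo3-/- pools, which gave p = 0.0714 in a two-sided exact permutation test (adjusted p = 0.107 over 3 library measures).

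The share of counts from 13 mitochondrially encoded genes was 7.21 ± 0.897% in elmo3+/+ against 8.46 ± 1.24% in elmo3-/- pools (mean ± SD of 6 pools), with p = 0.0628 in the same exact permutation test (adjusted p = 0.107). It correlated with the mcm2 to mcm6 level at r = -0.714 (rho = -0.769, n = 12). Within elmo3+/+ pools r was -0.785, and -0.454 without the 2 farthest pools. Within elmo3-/- pools it was -0.424, and 0.519 without the 2 farthest. Each genotype had only 6 pools before any were left out, so these within-genotype values, and their signs, rest on very few points. With 1 surrogate variable in the model the log2 fold changes of mcm2 to mcm6 lay between -0.06 and -0.15, and of the 5 genes mcm6 alone had an unadjusted p under 0.05. The variable was estimated from all genes tested, these 5 included. It correlated with the mcm2 to mcm6 level at r = -0.856 (n = 12). Its mean was -0.136 in elmo3+/+ and 0.136 in elmo3-/- pools, so it also differed between the genotypes. The part of library composition in the lower mcm2 to mcm6 level was not tested.

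Among the enzymes of the replication fork 13 of 14 members had log2 fold changes below 0, beside 48.9% of all genes tested. None of the 14 passed the test. The lowest was pold1 (ENSDARG00000027689), the catalytic subunit of polymerase delta. Its CPM was 18.8, 22.6 and 26.7 in elmo3+/+ (lowest, median, highest) and 14.3, 17.8 and 23.9 in elmo3-/-. There 4 elmo3-/- pools lay below every elmo3+/+ pool, while elmo3-/- replicate 1 lay above 5 of the 6. The log2 fold change of pold1 was -0.27 ± 0.12 (standard error, edgeR, unadjusted p = 0.0345, adjusted p = 0.504), and with 1 surrogate variable it was -0.13.

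The clamp pcna (ENSDARG00000054155), a standard marker of S phase, had 160, 176 and 196 CPM in elmo3+/+ and 147, 173 and 183 CPM in elmo3-/-. Both ranges overlapped over most of their width, with elmo3-/- replicates 4 and 6 below all elmo3+/+ pools. Its log2 fold change was -0.07 with a 95% confidence interval from -0.23 to 0.10 (adjusted p = 0.802, edgeR). The catalytic subunit of polymerase epsilon, pole (ENSDARG00000058533), had 13.2 to 17.1 CPM in elmo3+/+ and 12.5 to 18.4 CPM in elmo3-/-, with medians of 14.6 and 14.7 CPM (log2 fold change -0.01, adjusted p = 0.971). The flap endonuclease fen1, chosen after its values were seen, was below the elmo3+/+ median in all 6 elmo3-/- pools, and its log2 fold change of -0.13 had an unadjusted p of 0.0776 (edgeR, adjusted p = 0.563).

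The primase and polymerase alpha subunits prim1, prim2 and pola1 lay between -0.10 and -0.01, and the single-strand binding proteins rpa1, rpa2 and rpa3 between -0.11 and -0.05. The clamp loader subunits rfc3 and rfc5 had -0.12 and -0.09, and their partner rfc4 had 0.12. The ligase lig1, which seals the copied fragments, had -0.07. All of these are log2 fold changes with adjusted p-values of at least 0.647.

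Ribonucleotide reductase held the most unlike pair of genes. The symbol rrm2, the small subunit, named 2 genes. One is called rare here for its counts, 12 to 198 per pool against 1322 to 1858 for the abundant gene. On the TPM scale the rare gene had a mean of 17.5, above the 11.6 of the median member, and the abundant gene had 57.6. The rare gene (ENSDARG00000020711) had 0.699, 2.54 and 6.32 CPM in elmo3+/+ (lowest, median, highest) and 5.12, 7.48 and 12.2 CPM in elmo3-/-. All 6 elmo3-/- pools lay above the elmo3+/+ median, but elmo3+/+ replicates 4 and 5 reached into the elmo3-/- range. Its log2 fold change was 1.26 ± 0.39 (standard error, edgeR, unadjusted p = 0.00505, adjusted p = 0.489), the highest of all members.

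The abundant gene (ENSDARG00000078069) had 76.0, 91.3 and 105 CPM in elmo3+/+ and 76.3, 85.5 and 103 CPM in elmo3-/-, almost the same range. Its log2 fold change was -0.07 with an interval from -0.26 to 0.13. The rare gene gave 12 to 198 counts per pool, and the length by which its counts were divided was 0.0858 ± 0.0380 of that of mcm2 (SD over 12 pools), so that its reads were spread over transcripts of different length from pool to pool. On the log2(TPM + 0.1) scale its difference was 2.11. Whether reads were shared between both rrm2 genes cannot be told from the tables. The large subunit rrm1 had 97.6 to 133 CPM in elmo3+/+ and 92.4 to 119 CPM in elmo3-/- (log2 fold change -0.12, adjusted p = 0.629).

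The chromatin assembly factor subunits, which place histones on new DNA, stood on either side of 0. For chaf1a (ENSDARG00000062152) CPM was 64.6, 71.6 and 79.9 in elmo3+/+ and 59.2, 76.7 and 98.4 in elmo3-/-, so the elmo3-/- pools were the more spread. Its log2 fold change was 0.09 (adjusted p = 0.809, edgeR). For chaf1b (ENSDARG00000056473) CPM was 23.6 to 28.5 in elmo3+/+ and 20.3 to 31.0 in elmo3-/- (log2 fold change -0.04, adjusted p = 0.924).

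None of the 23 mitosis members reached an unadjusted p under 0.05, and the intervals of all 23 lay within 0.5 of 0 on the log2 scale, with a median of -0.03. Of the replication members 7 of 30 (23.3%) had an unadjusted p under 0.05, with a median of -0.07. Over all genes tested the share at this unadjusted p was 9.52%. Of the 7 replication members 5 were mcm2 to mcm6, which moved together between pools (median r = 0.801). No test of this difference between the lists was made.

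The main mitotic kinase cdk1 (ENSDARG00000087554) had 20.3, 24.9 and 30.3 CPM in elmo3+/+ and 21.7, 25.3 and 29.3 CPM in elmo3-/-. The ranges nearly coincided, and the log2 fold change was -0.004 with an interval from -0.23 to 0.22 (adjusted p = 0.992, edgeR). Its partner ccnb1 (ENSDARG00000051923), a cyclin of mitotic entry, had 15.8, 18.4 and 19.8 CPM in elmo3+/+ and 15.9, 18.8 and 24.5 CPM in elmo3-/-. Here elmo3-/- replicates 1, 2 and 3 lay above every elmo3+/+ pool and the other three did not (log2 fold change 0.12, adjusted p = 0.741).

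The kinase cdk2, which acts around the start of S phase, had the smallest p of the cyclins and their kinases. It had 11.7 to 14.5 CPM in elmo3+/+ and 10.7 to 13.3 CPM in elmo3-/-, with 4 elmo3-/- pools below every elmo3+/+ pool. Its log2 fold change was -0.17 ± 0.09 (standard error, edgeR, unadjusted p = 0.0682, adjusted p = 0.552). The least abundant cyclin, ccnb2, had 3.54 to 5.65 CPM in elmo3+/+ and 3.26 to 6.46 CPM in elmo3-/- (log2 fold change -0.07, interval from -0.44 to 0.30). For ccna2 and ccnb3, cyclins of S phase and mitosis, the log2 fold changes were -0.04 and 0.04.

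Aurora kinase B, aurkb (ENSDARG00000037640), which corrects attachments of chromosomes to the spindle, had 14.1, 17.7 and 19.9 CPM in elmo3+/+ and 13.9, 16.5 and 21.6 CPM in elmo3-/-. The Polo kinase plk1 (ENSDARG00000058471) had 29.8, 32.7 and 39.2 CPM in elmo3+/+ and 30.2, 33.1 and 36.9 CPM in elmo3-/-. Both pairs of ranges overlapped almost fully, with log2 fold changes of -0.01 each and adjusted p-values of 0.981 and 0.962 (edgeR).

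The anaphase activator cdc20 had the smallest p of this role, with 9.62 to 15.1 CPM in elmo3+/+, 8.95 to 14.3 CPM in elmo3-/- and a log2 fold change of -0.15 (adjusted p = 0.712). Separase, espl1, which cuts the link between sister chromatids, had 14.6 to 17.4 and 13.6 to 19.6 CPM (log2 fold change -0.03). The checkpoint genes bub1, bub1ba and mad2l1 and the spindle pole kinase aurka lay between -0.03 and 0.04. BIRC5, named for the survivin subunit of the aurkb complex, had 5.11 TPM and a log2 fold change of 0.07 (adjusted p = 0.892).

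Of the spindle and kinetochore genes, tpx2 (ENSDARG00000078654), which starts microtubule growth near chromosomes, had the smallest p. Its CPM was 49.3, 55.4 and 65.3 in elmo3+/+ and 46.9, 52.9 and 57.5 in elmo3-/-, with 5 elmo3-/- pools below the elmo3+/+ median (log2 fold change -0.11, adjusted p = 0.639). The microtubule bundling protein nusap1 (ENSDARG00000002403) had 39.6, 54.8 and 56.3 CPM in elmo3+/+ and 48.2, 53.2 and 61.0 CPM in elmo3-/-. Its lowest value stands alone in elmo3+/+ replicate 4 (log2 fold change 0.04, adjusted p = 0.903). The kinetochore protein cenpf had 33.4 to 49.5 and 41.2 to 57.6 CPM (log2 fold change 0.08), and the motors kif11 and kif23 had log2 fold changes of -0.09 and -0.03.

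The proliferation marker mki67 (ENSDARG00000091150), which coats mitotic chromosomes, had 144, 181 and 196 CPM in elmo3+/+ and 156, 165 and 195 CPM in elmo3-/-. In 5 of 6 elmo3-/- pools it lay below the elmo3+/+ median, and all of these were above the lowest elmo3+/+ pool. That lowest pool was replicate 4, and the next lowest elmo3+/+ pool, replicate 6, had 169 CPM. In elmo3-/- replicates 3 to 6 had 156 to 167 CPM, and replicates 1 and 2 had 195 and 175 CPM. The log2 fold change was -0.06 with an interval from -0.23 to 0.11 (adjusted p = 0.832, edgeR). Topoisomerase top2a (ENSDARG00000024488), which untangles sister DNA, had 63.4, 78.1 and 83.6 CPM in elmo3+/+ and 62.1, 72.7 and 96.6 CPM in elmo3-/- (log2 fold change -0.02, adjusted p = 0.966). The condensin subunit smc2 had 25.0 to 33.7 and 22.1 to 36.1 CPM and its partner smc4 had 37.4 to 45.2 and 31.6 to 48.7 CPM. Both had wider ranges in elmo3-/-, with log2 fold changes of -0.08 and -0.03.

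The spread between pools of one genotype was wider than the difference between the genotypes. A level was computed for each pool as the mean over tested members of log2 CPM minus the gene's mean over the 12 pools. The replication level ran from -0.17 to 0.14 in elmo3+/+ and from -0.16 to 0.14 in elmo3-/-, with a difference in means of -0.03. The mitosis level ran from -0.18 to 0.15 in elmo3+/+ and from -0.21 to 0.19 in elmo3-/-, also with a difference of -0.03. The replication level includes the rare rrm2 gene ENSDARG00000020711, which pulls its genotype difference toward 0. Deviations of that gene ran from -2.48 in elmo3+/+ replicate 3 to 1.44 in elmo3-/- replicate 3. A level without it was not computed, and the median log2 fold changes were -0.07 for replication and -0.03 for mitosis members. Levels of both parts were high in elmo3+/+ replicates 2 and 5 and elmo3-/- replicates 1 and 3, and low in elmo3+/+ replicate 1 and elmo3-/- replicates 4 and 6.

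Both levels followed each other over the pools, with Pearson r = 0.780 and Spearman rho = 0.720 (n = 12), and r = 0.809 without the 2 pools farthest from the median replication level. Within genotypes r was 0.632 in elmo3+/+ and 0.883 in elmo3-/- (n = 6 each). In elmo3+/+ replicate 4 they parted, with a replication level of -0.01 and a mitosis level of -0.18. The replication level also moved with the total count (r = 0.704, n = 12), and the mitosis level less so (r = 0.317). These points share the scaling of each library, and they are given as a description.

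**Figure D3:**
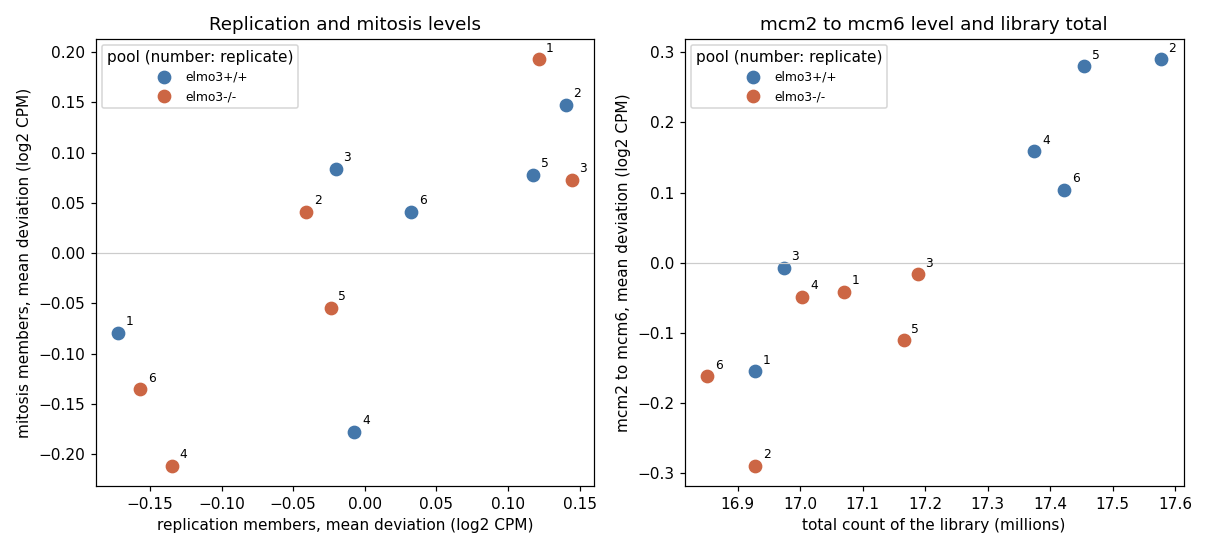
Left, mean deviation of the 23 mitosis members (y axis, log2 CPM) against that of the 30 tested replication members (x axis) in each pool. Right, mean deviation of mcm2 to mcm6 (y axis, log2 CPM) against the total count of the library (x axis, in units of 1e6 counts). Numbers are replicates, blue is elmo3+/+ and orange elmo3-/-. On the left both genotypes spread over much the same range (r = 0.780), with the rare rrm2 gene counted in the replication level. On the right the level climbs with the total count (r = 0.904).

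Pairs of members moved together between pools more often than pairs of all genes. Correlations were taken over the 12 pools after each genotype's mean had been removed, so that a genotype difference does not enter. Over 1378 pairs of members the median r was 0.429, with 89.0% of pairs above 0 and 40.3% above 0.5. Over all 223164501 pairs of tested genes the median was -0.001, with 49.9% above 0 and 11.3% above 0.5. Mitosis members were tied more closely (median r = 0.535, 253 pairs) than replication members (0.405, 435 pairs), and pairs across both parts had 0.415. In elmo3+/+ pools alone the median over members was 0.513 and in elmo3-/- pools alone 0.472. All of these pairs share the same 12 libraries, so no p-value is given.

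The members closest to the rest were the condensin smc4 (mean r with the other members 0.578), rrm1 (0.579), gins2 (0.563), chaf1a (0.559), smc2 (0.533), ccnb1 (0.528) and pcna (0.524). The least close were the rare rrm2 gene ENSDARG00000020711 (-0.03), fen1 (0.08), cdk2 (0.08), mcm2 (0.17) and mcm5 (0.19). The subunits mcm2 to mcm6 correlated more with each other than with the other members. Their 10 pairs had r from 0.528 to 0.926 with a median of 0.801, and the highest was mcm3 with mcm4. With the other 48 members the median was 0.299 over 240 pairs, and with mcm7 the 5 values lay between -0.07 and 0.26.

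**Figure D4:**
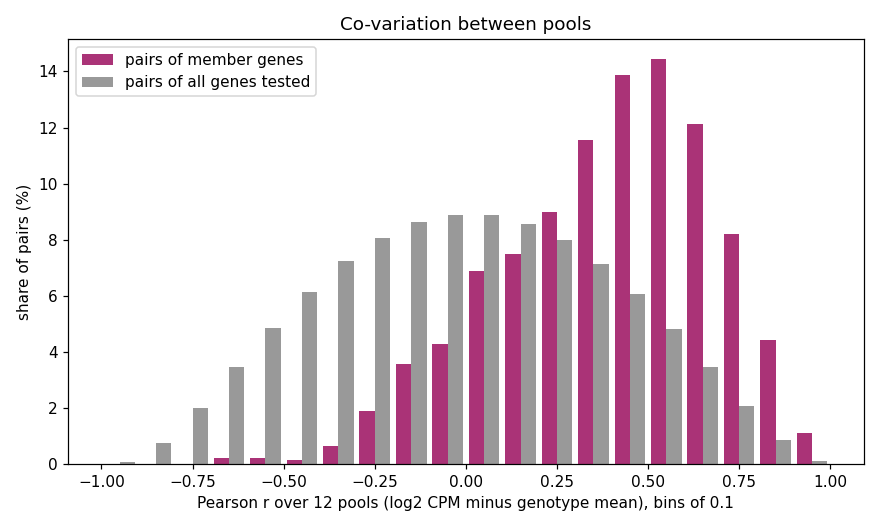
Share of gene pairs (y axis, %) by Pearson r over 12 pools (x axis, bins of 0.1, log2 CPM minus the genotype mean), for member pairs in purple and for all pairs of tested genes in grey. Member pairs centre at 0.429 and all pairs at -0.001.

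The map of deviations by pool shows the same pattern gene by gene. In elmo3-/- replicate 4 nearly the whole column is below the gene means, and in elmo3-/- replicate 1 most genes are above them while mcm2, mcm4, mcm5 and mcm6 are below. In elmo3-/- replicate 2 the genes mcm2 to mcm6 and pold1 are at their lowest or second lowest, with an mcm2 to mcm6 level of -0.29, while the mitosis level of the same pool is 0.04.

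**Figure D5:**
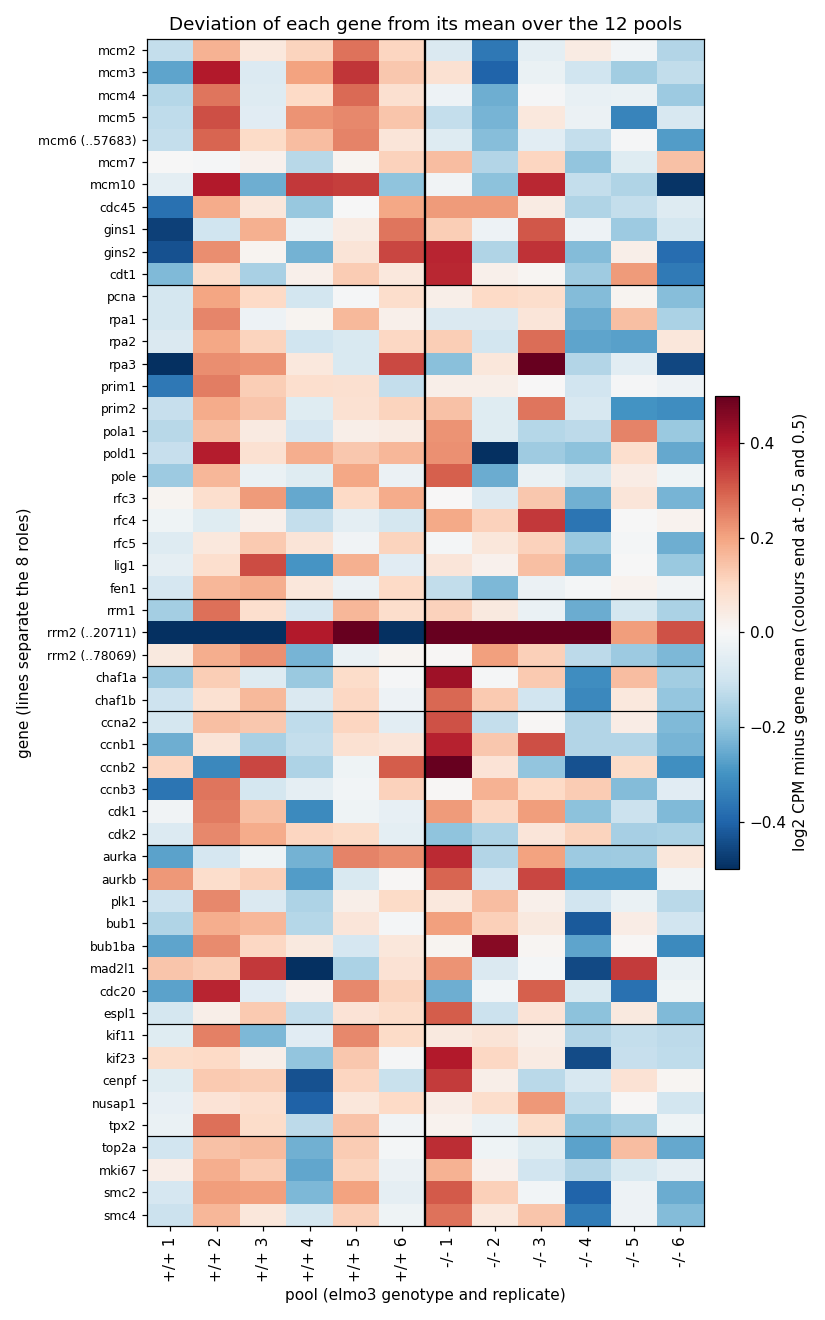
Log2 CPM of each tested member minus its mean over the 12 pools (colour, ends at -0.5 and 0.5), genes in rows by role and pools in columns. Columns rather than genotypes carry most of the colour, and mcm2 to mcm6 form a block that is high in elmo3+/+ replicates 2, 4, 5 and 6.

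Other genes of the same processes were read from further lists. Of 41 other replication genes (origin recognition, polymerase subunits, nucleotide synthesis and others) 0 passed the threshold. At an unadjusted p under 0.05 there were 3, all lower (tyms, rfc1 and wdhd1). That is 7.32% of the list, beside 4.95% of all tested genes lower. The smallest p was that of tyms, the thymidylate synthase, with 14.3 to 17.6 CPM in elmo3+/+ and 12.5 to 17.2 CPM in elmo3-/- (log2 fold change -0.25, standard error 0.09, adjusted p = 0.499, edgeR). In 5 of 6 elmo3-/- pools tyms lay below every elmo3+/+ pool, and replicate 3 did not. Of 63 other mitosis genes 0 passed, and 3 had an unadjusted p under 0.05, cenpi and both tubb2b genes, all lower. These are 4.76% of the list, near the 4.95% of all tested genes lower. The tubulin gene tubb2b (ENSDARG00000039522), which is also strongly expressed in neurons, had the smallest p, with a log2 fold change of -0.21 (adjusted p = 0.492).

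Of 20 regulators of cell cycle transcription (E2F, RB, MYB and MYC families, tfdp2, foxm1 and lin genes) 0 passed. At an unadjusted p under 0.05 e2f2 was lower and rbl2 higher, which is 5% of the list in each direction. The pocket protein rbl2, a repressor of E2F targets, had 51.1 to 62.6 CPM in elmo3+/+ and 56.9 to 67.3 CPM in elmo3-/- (log2 fold change 0.18, adjusted p = 0.498, edgeR). All 6 elmo3-/- pools lay above the elmo3+/+ median of 54.5 CPM. Of 15 brakes on the cell cycle and targets of p53 0 passed, with a median log2 fold change of 0.14. Of these 15 genes 12 were above 0 and 3 below, while 48.9% of all genes tested were below 0. At an unadjusted p under 0.05 mdm2 and sesn1 were higher (13.3% of the list) and cdkn1cb was lower (6.67%). The p53 inhibitor mdm2 had 25.5 to 36.7 CPM in elmo3+/+ and 31.7 to 46.2 CPM in elmo3-/- (log2 fold change 0.31, adjusted p = 0.495). For these 4 lists together DESeq2 and limma also called 0 genes, and the shares at an unadjusted p under 0.05 were 5.76% lower and 2.16% higher, beside 4.95% and 4.58% of all genes.

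These further genes shared the pool pattern of the members to different degrees. The median correlation with the mean deviation of the members was 0.593 for the other mitosis genes, 0.449 for the other replication genes, 0.311 for the regulators and -0.09 for the brakes, beside 0.003 for all other tested genes (n = 12 pools). Single regulators ran from -0.412 (foxm1) to 0.719 (e2f7). An r above 0.5 was seen in 8.57% of all other tested genes. Of 21 retinal and neural progenitor genes 0 had r above 0.5 (median 0.06), and of 17 blood progenitor genes 0 did (median 0.18). Of the 3 germ cell genes tested 2 did, piwil1 (0.70) and tdrd1 (0.64), with a median of 0.635 and mean levels under 0.5 TPM.

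The same marker lists were compared between genotypes. Of the 21 retinal and neural progenitor genes 0 passed the threshold. At an unadjusted p under 0.05 rx1, a homeobox gene of retinal progenitors, was higher (log2 fold change 0.34, adjusted p = 0.499, edgeR) and dld, a Notch ligand, was lower. That is 4.76% of the list in each direction, near the 4.58% of all tested genes higher and 4.95% lower. The summed level of the 21 genes was 646 to 782 CPM in elmo3+/+ and 679 to 817 CPM in elmo3-/-. Of the 17 blood genes 0 passed, with a median of -0.24 and 15 below 0, beside 48.9% of all tested genes below 0. Here rag1, which recombines antigen receptor genes in lymphocytes, had 1.22 to 4.92 CPM in elmo3+/+ and 0.737 to 2.30 CPM in elmo3-/- (log2 fold change -1.22, standard error 0.34, adjusted p = 0.489), and ptprc and myb were also lower at an unadjusted p under 0.05, so that 17.6% of the list was, beside 4.95% of all tested genes. The summed blood level was 118 to 193 CPM in elmo3+/+ and 125 to 168 CPM in elmo3-/-, and none of the 17 was at 0 in all pools.

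Of 13 germ cell genes 3 passed the filter and all 13 had means under 0.5 TPM. The smallest p among them was that of piwil1 (log2 fold change 0.61, adjusted p = 0.558). Of the 23 genes that the found whole larva tissue markers named, 0 passed. There were 6 (26.1%) at an unadjusted p under 0.05, all lower, beside 4.95% of all tested genes: tfa, fabp10a, prss59.1, ins, myl7 and fabp2. The liver gene tfa ran from 103 to 526 CPM in elmo3+/+ and from 64.0 to 267 CPM in elmo3-/- (log2 fold change -1.31, adjusted p = 0.489). The part of tissue composition in the levels of the members was not tested.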

How the data were processed

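RNA of 12 pools of larvae was sequenced on a BGISEQ-500. For every pool the authors deposited estimated counts per gene (expected counts, 63.0% of them whole numbers), not scaled between pools, and TPM values, for which the authors divided counts by transcript length and scaled each pool to a fixed total. The submitters' processing notes name Trim Galore 0.6.4, kallisto 0.4.6 and the genome build GRCz11. Groups and replicate numbers come from the sample titles.

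Symbols were taken from a table in which 29201 of the 32520 identifiers (89.8%) had one, matched without regard to capitals. The members and all gene lists were chosen with earlier results of these data known. Other replication genes, other mitosis genes, transcription regulators, brakes, retinal and neural, blood and germ cell markers and whole larva markers made up the further lists. The RefSeq gene table of the assembly GRCz12tu placed elmo3 on chromosome 25 and 0 of the 52 member symbols there. It was used for nothing else.

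Estimated counts were rounded and tested in R 4.3.3 with the edgeR 4.0.16 quasi-likelihood fit, TMM scaling, the filterByExpr filter, genotype as the only term and Benjamini-Hochberg adjustment over 21127 genes, at a threshold of 0.05. The study's methods name no test for single genes. CPM values use the TMM-scaled totals, and log2 CPM a prior count of 2. Fold changes are elmo3-/- minus elmo3+/+, and confidence intervals use the edgeR standard error. Library measures were compared by two-sided exact permutation tests. The scripts were tested on simulated data. The alternatives were DESeq2 1.42.0, limma 3.58.1 on TPM with a pseudocount of 1 or 0.1 before log2, total count scaling, upper-quartile scaling, all genes kept, a minimum mean count of 10, the replicate block, sva 3.50.0 with 1 surrogate variable, a prior count of 0.5, and each pool left out.

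Always named were elmo3, pcna, mki67, top2a, cdk1, ccnb1, mcm5, rrm2 and aurkb. In each of 8 roles the member with the smallest p, the highest mean TPM and the lowest mean TPM was added, in each further list the gene with the smallest p, and outside the lists the 5 genes most like the members. Other genes are named after their values were seen.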

Additional observations from a re-analysis of the deposited data

Results flagged for a closer look

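Among 64 sets of 6 pools of one genotype that were screened for a single pool far from the rest, 2 stood out, and chance alone gives about 1 in 20. For nusap1 the pool of elmo3+/+ replicate 4 had 39.6 CPM, while the other 5 elmo3+/+ pools had 50.9 to 56.3 CPM. The mitochondrial share of elmo3+/+ replicate 1 was 8.99%, while the other 5 elmo3+/+ pools had 6.59 to 7.19%.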

How the results depend on the processing

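No member passed the adjusted threshold under any of the 21 alternatives, and neither did any of the other cell cycle genes. Over all genes DESeq2 called 55 against 21 in edgeR. The count of members at an unadjusted p under 0.05, which was 7, became 11 with total count scaling, 13 on log2(TPM + 1), 13 on log2(TPM + 0.1) and 2 with 1 surrogate variable, and 3 to 9 when single pools were left out. With the replicate block it was 4. The share of all tested genes at this unadjusted p was 9.52% in the main fit and 9.61% with total count scaling. It was 9.06% on log2(TPM + 1), 8.95% on log2(TPM + 0.1), 5.95% with 1 surrogate variable and 10.6% with the replicate block. When single pools were left out it ran from 5.72% to 14.5%. The median log2 fold change over all genes tested was 0.004 in the main fit and -0.048 with total count scaling. On log2(TPM + 1) this median was -0.062 and on log2(TPM + 0.1) -0.076. Single genes did not all move downward, and the rare rrm2 gene rose from 1.26 in the main fit to 2.11 on log2(TPM + 0.1). Same-numbered pools correlated in their deviations by -0.289 to 0.392, with a mean of 0.110. Among the 6 pools of the other genotype, 5 of 12 pools were closest to their own number. These values do not settle whether the numbers are pairs. The labels do not say so either, and the main fit left the pools unpaired. The replicate block changed no adjusted call. The median r between members was 0.4002 with total count scaling and 0.362 on log2(TPM + 1), and 0.391 to 0.473 when single pools were left out. The cause of these shifts was not tested.

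Of the 53 tested members, 26 kept the sign of their log2 fold change under all 21 alternatives and 27 turned under 1 or more. Among the 27 members that the naming rule chose or that were added to it (mcm2, mcm3 and mcm4), 520 values kept their sign and 47 turned. For mcm7 (0.006) the log2 fold change was -1.6e-05 with upper-quartile scaling, -0.046 with total count scaling, -0.03 with 1 surrogate variable, and -0.092 and -0.093 on log2(TPM + 1) and log2(TPM + 0.1). For nusap1 (0.04) it was -0.015, -0.016, -0.026 and -0.027 under total count scaling, the surrogate variable and both TPM scales. For chaf1a it was -0.0046 and -0.0050 on the TPM scales. Under total count scaling and both TPM scales the median over all genes tested was also below 0 (-0.048, -0.062 and -0.076). With the surrogate variable pole had 0.070 and plk1 0.0011. With single pools left out the values ran from -0.027 to 0.044 for mcm7, from -0.084 to 0.031 for pole, from -0.10 to 0.020 for chaf1b, from -0.21 to 0.0083 for ccnb2, from -0.063 to 0.051 for cdk1, from -0.085 to 0.045 for aurkb, from -0.047 to 0.036 for plk1, from -0.10 to 0.0097 for espl1, from -0.028 to 0.068 for nusap1 and from -0.11 to 0.030 for top2a. The log2 fold changes of mcm2 to mcm6 and pold1 stayed below 0 and that of the rare rrm2 gene above 0 in every alternative. Among the other 26 members 485 values kept their sign and 61 turned, in cdc45, gins1, gins2, cdt1, rpa3, prim1, pola1, ccna2, ccnb3, aurka, bub1, bub1ba, mad2l1, kif11, kif23 and smc4, whose values under the alternatives lay between -0.23 (rpa3) and 0.15 (cdt1). Of the rarest members, mcm10 with 44 to 88 counts per pool had a 95% interval from -0.57 to 0.15 and gins1 with 60 to 107 counts one from -0.26 to 0.31. The part of depth in these widths was not tested.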

Other observations

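Outside all lists, the genes whose deviations followed the mean of the members most closely over the 12 pools were RCC1L (r = 0.971), SRP72 (0.946), FAM180A (0.945), gpatch4 (0.921) and si:ch211-266i6.3 (0.906). These were the 5 of 20869 tested genes outside all lists with r above 0.9, and 8.34% of those genes had r above 0.5. SRP72, a subunit of the signal recognition particle, had 128 CPM on average and a log2 fold change of -0.07 between genotypes (edgeR, adjusted p = 0.753). Of the further lists, sgo1, which protects the cohesion of sister chromatids, reached 0.915 and orc4, a subunit of the origin recognition complex, 0.881, both picked after their values were seen. At the other end pkmyt1, a kinase that holds Cdk1 inactive, had -0.710 and the p53 target sesn1 had -0.647, while cdkn1a, the best known p53 target among the brakes, had 0.645. These correlations share the libraries and are given as values only.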
